A study of Homo sapiens with 2 samples.

Results

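TFAP2A, TFAP2B and TFAP2C, 3 of the 33538 genes counted, were taken by their symbols from the single-cell matrices of both libraries of the study. They encode AP-2 transcription factors, which bind GC-rich DNA as dimers and can pair with each other. TFAP2A is best known from surface ectoderm, neural crest and amnion, TFAP2C from trophectoderm and the germ cell lineage, and TFAP2B from neural crest and kidney. GATA2, GATA3, TFAP2A and TFAP2C are known as genes that switch on together when human embryonic stem cells (hESCs) receive BMP4, a bone morphogenetic protein. SOX2 is a factor of the pluripotent state, and the study reports that it went down in hESCs under sustained BMP4.

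The study compared BMP4 responses of H1, an established hESC line, with and without intact GATA3. Both libraries came from cells given 50 ng/ml BMP4 in mTeSR1 medium for 48 h. The library labelled WT was from unmodified H1. The library labelled GATA3 KO was from 1 clone, KO-GATA3-06, derived from an H1 line with an inducible Cas9 cassette. Clone, cassette and genotype therefore cannot be told apart. There was 1 library per group, so no test was possible, each comparison is between 2 libraries, and every 95% interval covers counting error only.

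Cells with at most 7500 detected genes and at most 25% mitochondrial counts were kept, which left 2519 of 3802 cells labelled WT and 4450 of 6221 cells labelled GATA3 KO. Median depths of the kept cells were 44415 and 43131.5 unique molecular identifiers (UMIs, counted transcripts). The libraries shared 8 cell barcodes, of which 5 were kept in both. The targeted gene gave 12.7 and 10.9 counts per 1000000 UMIs (CPM) in WT and GATA3 KO, so its 3′ transcript count does not check the labels, and all directions below rest on them.

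TFAP2A lies on the minus strand of chromosome 6, from 10393186 to 10419659 in GRCh38. TFAP2B is on the plus strand of the same chromosome, from 50818723 to 50847619. TFAP2C is on the plus strand of chromosome 20, from 56629306 to 56639283. All are annotated as protein-coding. RefSeq (GRCh38.p14) places 2 starts in TFAP2A, 7268 bases apart, and a count of 3′ ends cannot tell which of them was used. The 250 bases before each start are shown because TFAP2A had the largest difference in level between the libraries, in CPM, of the 3 members. Capitals mark the letters TATAAA, found in 10.7% of 35116 promoters of this length on either strand. The first, chr6:10419660-10419909 on the minus strand, overlaps no annotated exon. The second, chr6:10412392-10412641 on the minus strand, lies inside the gene, with 40 of its bases in an annotated coding exon of TFAP2A.
TFAP2A, outer start: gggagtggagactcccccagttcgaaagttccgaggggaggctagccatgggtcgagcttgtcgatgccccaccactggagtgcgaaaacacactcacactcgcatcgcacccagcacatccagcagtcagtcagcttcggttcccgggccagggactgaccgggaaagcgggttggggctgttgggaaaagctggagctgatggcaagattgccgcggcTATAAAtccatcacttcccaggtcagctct
TFAP2A, inner start: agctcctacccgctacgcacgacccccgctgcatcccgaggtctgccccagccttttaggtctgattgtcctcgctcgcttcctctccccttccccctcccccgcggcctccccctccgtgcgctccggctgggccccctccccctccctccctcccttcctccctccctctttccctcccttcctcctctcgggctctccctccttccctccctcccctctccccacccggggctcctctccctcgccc

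The match in the outer promoter begins 30 bases before the start, and the GC content of the stretches is 59.6% and 71.2%. Neither holds the AP-2 letters GCCNNNGGC, which 19.8% of all promoters hold, or the GATA letters AGATAA or TGATAA, held by 14.6%. The SOX letters ACAAAG, held by 13.7%, are not in them either. All were searched on both strands, and a missing match says only that these letters are not in the window.

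TFAP2A was the family gene with the most UMIs in GATA3 KO, and the one with the largest difference in CPM between the libraries. Its summed level was 16.7 CPM (15.9 to 17.5, 1663 UMIs) in WT and 37.7 CPM (36.8 to 38.6, 6612 UMIs) in GATA3 KO. That is 2.26-fold higher in GATA3 KO (2.14 to 2.39), or a log2 ratio of 1.13 (1.06 to 1.20) after adding 1 CPM to each level. Of 9979 genes with at least 5 CPM in the higher library, 2.43% were at least 2-fold higher and 2.09% at least 2-fold lower in GATA3 KO on that scale. Their median log2 ratio was 0.08, and TFAP2A stood at percentile 98.8.

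TFAP2C was at a similar level in both libraries. It gave 12.2 CPM (11.5 to 12.9) in WT and 10.6 CPM (10.1 to 11.1) in GATA3 KO, a log2 ratio of -0.19 (-0.29 to -0.09) at percentile 27.7. TFAP2B was near the limit of detection in WT, with 21 UMIs and 0.211 CPM (0.131 to 0.322). In GATA3 KO it had 227 UMIs and 1.30 CPM (1.13 to 1.47), which is 6.14-fold higher (3.92 to 10.1). Over all deposited cells it was 3.66-fold higher (2.82 to 4.81), and in cells with over 7500 detected genes 2.62-fold (1.86 to 3.74). It did not reach 5 CPM in either library and is outside the percentages above. The order of the levels was TFAP2A, TFAP2C, TFAP2B in both libraries, and the intervals of neighbours did not overlap. Counts of 3′ ends do not grow with transcript length, so these levels are not per length.

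The other AP-2 genes were hardly counted. TFAP2D gave 1 UMI in WT and 0 in GATA3 KO, and TFAP2E gave 17 and 35 UMIs. TFAP2A-AS1, a long non-coding RNA (chromosome 6, 10409340 to 10416446, plus strand) that lies within TFAP2A on the opposite strand, gave 0.241 CPM in WT and 1.23 CPM in GATA3 KO, 5.11-fold higher (3.35 to 8.16). Its RefSeq start is 73 bases from the inner start of TFAP2A. The strand setting of the counting is not given in the sources used here, and how reads of the overlap were assigned was not checked. In GATA3 KO, 17 of 727 thinned cells with TFAP2A and 22 of 3311 without it had TFAP2A-AS1, a higher share in the cells with TFAP2A. More cells with TFAP2A-AS1 lacked a TFAP2A UMI than held one, but most cells of that library lacked one too.

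The genes around the members did not show the same difference. Of the tested genes within 5 Mb of TFAP2A, 25 in number, none was 2-fold apart. That count is near the background, as 2.43% of all tested genes were at least 2-fold higher and 2.09% lower. The median log2 ratio of these 25 genes was -0.19. The 16 around TFAP2B had a median of 0.03. Around TFAP2C the median of 25 genes was 0.22, the same as for the 281 tested genes of all of chromosome 20, and TFAP2C itself lay below it.

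The limit of 7500 detected genes bears on the size of the TFAP2A difference. Cells above it held 65.0% of all TFAP2A UMIs of the WT library and 36.6% of those of GATA3 KO. In those cells TFAP2A was at 32.2 CPM in WT and 37.8 CPM in GATA3 KO, a log2 ratio of 0.23 (0.16 to 0.29). Over all deposited cells its log2 ratio was 0.62 (0.57 to 0.67). TFAP2C in the cells above the limit was at 15.9 CPM in WT and 9.47 CPM in GATA3 KO, a log2 ratio of -0.69 (-0.79 to -0.58). TFAP2B was at 0.479 and 1.25 CPM there. The TFAP2A level of GATA3 KO was thus nearly the same in kept cells, cells above the limit and all cells, while that of WT was lowest in kept cells.

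**Figure D1:**
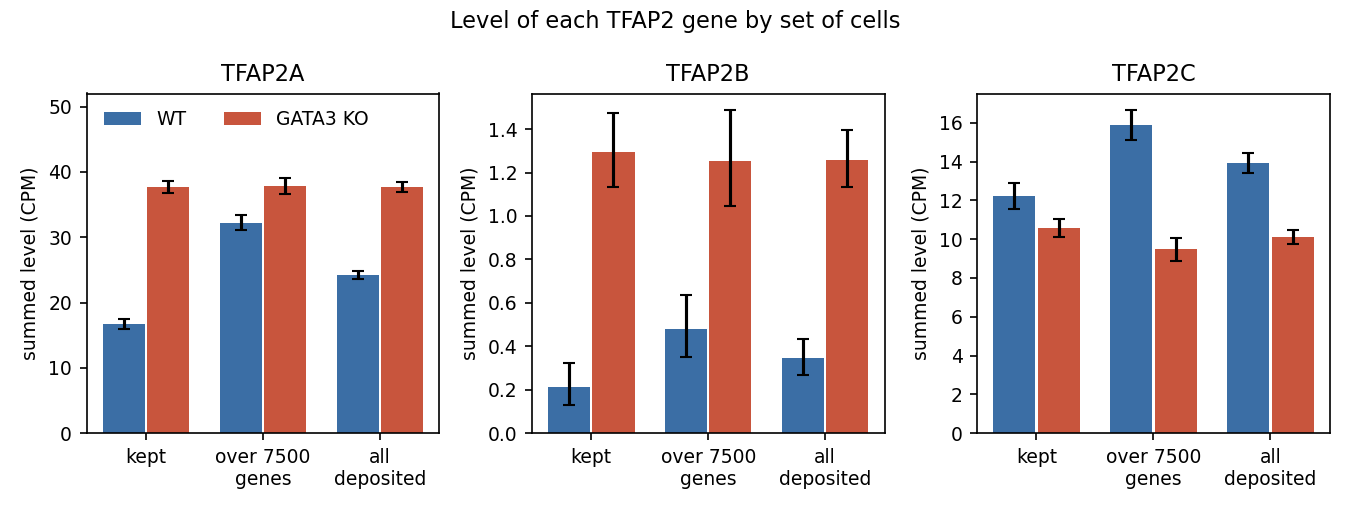
Summed level in CPM (linear axes from 0) of each TFAP2 gene in WT and GATA3 KO, in kept cells, in cells with over 7500 detected genes and in all deposited cells, with exact Poisson 95% intervals. TFAP2A of WT is at 16.7 CPM in kept cells and 32.2 CPM in cells above the limit, while GATA3 KO stays near 37.7 CPM.

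To count cells rather than UMIs, each kept cell was thinned at random to 10000 UMIs, which left 2173 cells in WT and 4038 in GATA3 KO. TFAP2A was then detected in 258 WT cells (11.9%, 10.5 to 13.3) and in 727 GATA3 KO cells (18.0%, 16.8 to 19.2), a difference of 6.13 percentage points (4.28 to 7.94). In kept cells at their full depth TFAP2A was detected in 26.6% and 29.3%. As a background, 3.41% of 176 WT cells and 5.49% of 1476 GATA3 KO cells with at least 5 SOX2 UMIs and no differentiation marker had TFAP2A. Median depths of these cells before thinning were 46808.5 and 45492 UMIs.

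Positive cells also held more TFAP2A in GATA3 KO. Before thinning, 88 of 669 positive WT cells (13.2%) and 476 of 1306 positive GATA3 KO cells (36.4%) had 5 or more TFAP2A UMIs. The median positive cell held 1 UMI in WT and 3 in GATA3 KO, and the highest cells held 20 and 31. The top 10% of cells held 71.3% of the TFAP2A UMIs in WT and 75.6% in GATA3 KO. For TFAP2C, also sparsely counted, they held 66.0% and 70.7%. With counts this sparse, such shares do not show how far TFAP2A was confined to few cells.

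TFAP2C was detected in 234 thinned WT cells (10.8%, 9.50 to 12.1) and 343 GATA3 KO cells (8.49%, 7.65 to 9.40). In WT this share was close to the 9.66% (5.73 to 15.0) found among the SOX2-rich cells, so TFAP2C detection alone did not set cells apart from them. In GATA3 KO the SOX2-rich cells were at 3.73% (2.82 to 4.82). TFAP2B was detected in 3 WT cells (0.138%) and 47 GATA3 KO cells (1.16%, 0.856 to 1.54), against 0 and 0.203% of the SOX2-rich cells. The 0 of 176 WT cells allows a share of up to 1.70%. At least 1 member was detected in 19.5% of WT cells and 22.1% of GATA3 KO cells.

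The members were found in the same cells more often than in others. In WT, 69 of 258 cells with TFAP2A (26.7%) and 165 of 1915 without it (8.62%) had TFAP2C, a difference of 18.1 percentage points (12.7 to 24.1). In GATA3 KO, 183 of 727 (25.2%) and 160 of 3311 (4.83%) had it, a difference of 20.3 points (17.1 to 23.7), or 16.0 with another random draw of the thinning. Among TFAP2C-positive cells, 29.5% had TFAP2A in WT and 53.4% in GATA3 KO.

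Of the TFAP2B-positive cells of GATA3 KO, 38 of 47 (80.9%) had TFAP2A and 23 of 47 (48.9%) had TFAP2C, while 17.3% and 8.02% of the other cells did. TFAP2B detection in TFAP2C-positive against TFAP2C-negative cells differed by 6.06 points (3.63 to 9.25), and by 2.76 (0.988 to 5.40) with the other draw, while that by TFAP2A was 4.96 and 4.79. All 3 members were found together in 21 GATA3 KO cells, and TFAP2B without any other member in 7. In WT, all 3 TFAP2B-positive cells had TFAP2C and 1 had TFAP2A, which is too few to read. Over single cells, the correlation of log counts of TFAP2A with TFAP2C was 0.24 in 2173 WT cells and 0.32 in 4038 GATA3 KO cells, given as a description of sparse counts from 1 library each.

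The same comparison was made among cells with no SOX2 UMI. There, TFAP2C was found in 28.7% of 202 TFAP2A-positive WT cells, 20.0 points (13.5 to 27.0) above the TFAP2A-negative ones. In GATA3 KO it was found in 36.5% of 329 such cells, 22.8 points (15.3 to 29.8) above.

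GATA3-positive cells had TFAP2A more often than GATA3-negative cells in both libraries. In WT, 74 of 189 GATA3-positive cells (39.2%) had TFAP2A, against 9.27% of 1984 GATA3-negative cells, 29.9 points apart (22.7 to 37.3). In GATA3 KO, where the transcript of the targeted gene was still counted, 220 of 300 GATA3-positive cells (73.3%) had TFAP2A, against 13.6% of 3738, 59.8 points apart (54.3 to 64.8). The share grew with the GATA3 count. With 0, 1 and 2 or more GATA3 UMIs, TFAP2A was detected in 9.27%, 31.5% and 67.5% of WT cells and in 13.6%, 67.6% and 86.0% of GATA3 KO cells.

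TFAP2C showed the same order at lower shares. Over the same GATA3 counts it was detected in 9.73%, 17.4% and 37.5% of WT cells and in 6.55%, 28.5% and 41.9% of GATA3 KO cells. TFAP2B in GATA3 KO was detected in 0.615%, 7.25% and 9.68%, and the last 2 bins hold 15 and 9 positive cells. The TFAP2B difference between GATA3-positive and GATA3-negative cells of GATA3 KO was 7.38 points (4.56 to 11.1), and 3.11 (1.10 to 6.15) with another draw of the thinning. Most TFAP2A-positive cells still had no GATA3 UMI: 184 of 258 (71.3%) in WT and 507 of 727 (69.7%) in GATA3 KO. Within cells without SOX2, GATA3-positive cells had TFAP2A in 47.1% of 136 WT and 84.0% of 187 GATA3 KO cells, 30.7 points (21.7 to 39.8) and 34.4 points (26.3 to 41.7) above GATA3-negative cells.

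**Figure D2:**
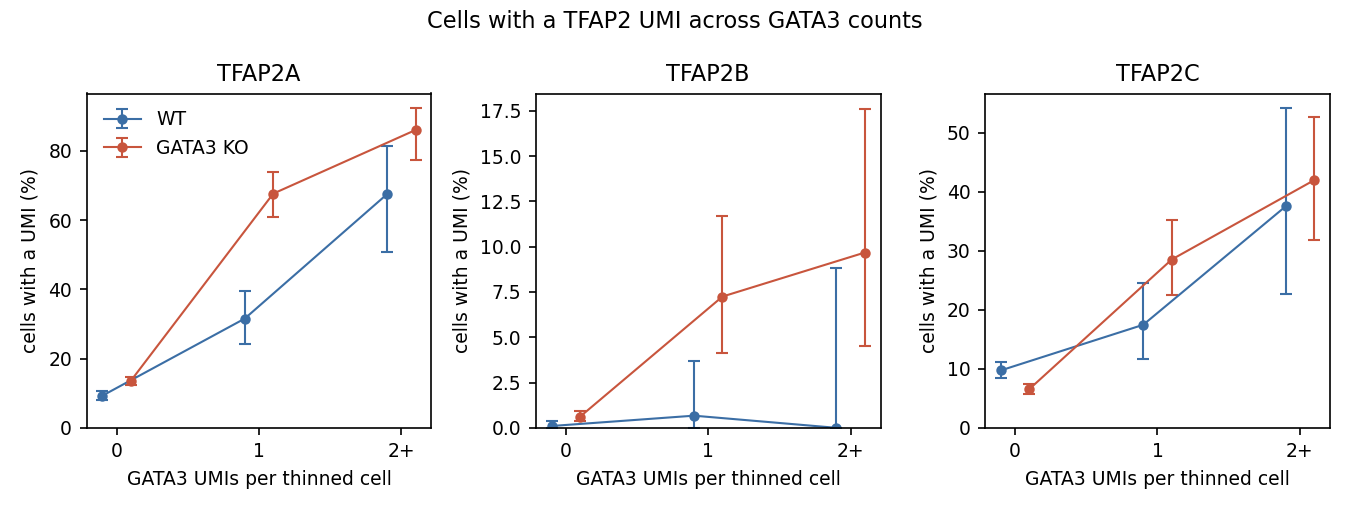
Share of thinned cells with a UMI of each TFAP2 gene (percent, linear axes from 0) by the number of GATA3 UMIs in the cell, in WT and GATA3 KO, with Clopper-Pearson 95% intervals. TFAP2A goes from 9.27% to 67.5% in WT and from 13.6% to 86.0% in GATA3 KO.

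TFAP2A was found mainly in cells with little or no SOX2, and it reached into SOX2-positive cells in GATA3 KO. In WT, 20.6% of 981 cells with no SOX2 UMI had TFAP2A, and 4.77%, 6.54%, 3.90% and 3.68% of cells with 1, 2, 3 to 4 and 5 to 9 SOX2 UMIs. The last 4 shares had overlapping intervals, so the WT difference was between cells with and without SOX2. In GATA3 KO the share went down from bin to bin, with 61.6% of 534 cells at 0, then 30.0%, 15.6%, 9.61%, 6.28% and, at 10 or more UMIs, 3.21%. A bin of 6 WT cells at 10 or more was not read.

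SOX2 itself was at 149.5 CPM in WT and 388.6 CPM in GATA3 KO. A SOX2 UMI was present in 56 of 258 TFAP2A-positive WT cells (21.7%) and in 398 of 727 TFAP2A-positive GATA3 KO cells (54.7%). Of all thinned cells, 54.9% in WT and 86.8% in GATA3 KO had one. TFAP2A-positive cells thus held SOX2 less often than all cells in both libraries, and the libraries already differed in that share. Between 0 and at least 5 SOX2 UMIs, TFAP2A detection differed by 17.0 points (12.6 to 20.4) in WT and 55.7 points (51.2 to 60.0) in GATA3 KO.

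TFAP2C detection fell from bin to bin of SOX2 up to 5 to 9 UMIs in GATA3 KO, and in WT the size of the difference depended on the cells and depth used. Its WT shares were 12.8% at 0 SOX2 UMIs and between 7.96% and 10.0% in the bins from 1 to 9. The difference between 0 and at least 5 was 2.64 points with an interval that holds 0 (-2.86 to 7.11). It was 5.09 (0.894 to 8.58) over all deposited cells, 5.36 (1.15 to 8.89) with no upper limit on detected genes, 6.30 (1.83 to 10.7) at 20000 UMIs and 2.75 (0.236 to 4.15) when at least 2 UMIs were required. With the other draw (4.79, -0.46 to 8.91) and without thinning (1.01, -3.12 to 5.17) the interval holds 0 as well. The limit of 5 SOX2 UMIs was the same at every depth, so runs at other depths compare other sets of cells. In GATA3 KO the shares were 27.7%, 10.5%, 7.26%, 5.22%, 3.81% and 4.28%, and the same difference was 23.8 points (19.9 to 27.9), or 19.8 with the other draw. TFAP2B in GATA3 KO was detected in 6.93% of cells without SOX2 and in at most 0.535% of every other bin, and 37 of its 47 positive cells (78.7%) had no SOX2 UMI.

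**Figure D3:**
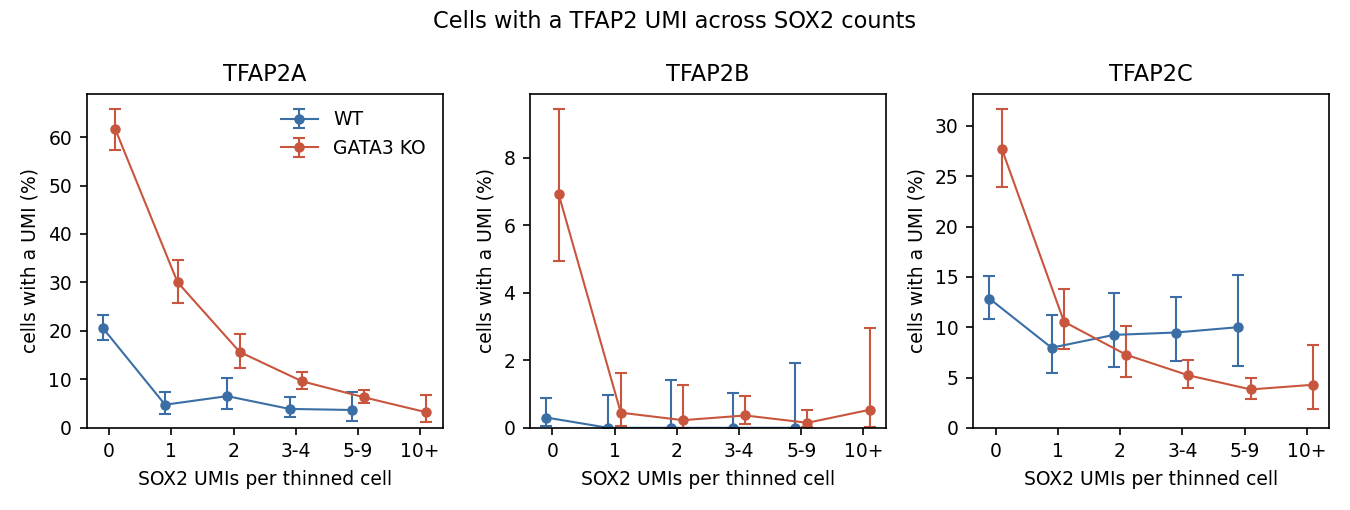
Share of thinned cells with a UMI of each TFAP2 gene (percent, linear axes from 0) by the number of SOX2 UMIs in the cell, in WT and GATA3 KO, with Clopper-Pearson 95% intervals. TFAP2A is at 20.6% of WT and 61.6% of GATA3 KO cells without SOX2, and TFAP2C of WT stays between 7.96% and 12.8%.

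The libraries differed in which marker transcripts their cells held, so TFAP2 levels were also taken within cells grouped by detected markers. Cells with HAND1 or ISL1, genes of amnion and lateral mesoderm, made up 6.49% of WT and 5.55% of GATA3 KO cells. Of the rest, cells with MIXL1, EOMES or TBXT, genes of the primitive streak, made up 42.2% of WT but 5.77% of GATA3 KO. Cells with neither and at least 5 SOX2 UMIs made up 8.10% and 36.7%. The groups carry the names of the transcripts and are not called cell types.

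TFAP2A was highest in HAND1 or ISL1 cells of both libraries, and its level was higher in GATA3 KO in 3 of 4 groups under each alternative run, while the result in SOX2-rich cells depended on the setting. In HAND1 or ISL1 cells it was at 91.5 CPM (76.4 to 109) in WT and 212 CPM (193 to 232) in GATA3 KO, a log2 ratio of 1.20 (0.92 to 1.49). In streak-marker cells it was at 14.7 and 48.5 CPM, a log2 ratio of 1.65 (1.29 to 2.01), and in the cells of no group at 11.2 and 35.7 CPM, a log2 ratio of 1.59 (1.31 to 1.87). In SOX2-rich cells, at 3.98 and 7.42 CPM, the log2 ratio was 0.76 and its interval holds 0 (-0.17 to 1.73). It was 1.18 over all deposited cells (0.32 to 2.03) and with no upper limit on detected genes (0.33 to 2.04), 1.19 with another draw of the thinning (0.08 to 2.26) and 0.13 at 20000 UMIs (-0.67 to 0.98). At 20000 UMIs the SOX2 limit of this group was raised in proportion to depth. With the group levels of GATA3 KO and the group shares of WT, TFAP2A would be at 50.2 CPM in place of 35.8 CPM, the thinned level of GATA3 KO. With the group levels of WT and the group shares of GATA3 KO it would be at 13.2 CPM in place of 17.3 CPM, the thinned level of WT. For these 4 groups of kept, thinned cells, equal group shares thus gave levels further apart than the libraries' own shares. The groups rest on single counted UMIs, and the part of cell composition in the TFAP2A difference was not tested.

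TFAP2A was not confined to thinned cells with a counted HAND1 or ISL1 UMI. Positive cells without either marker were 186 in WT (8.56% of all cells) and 543 in GATA3 KO (13.4%). They held 65.7% and 67.2% of the TFAP2A UMIs. TFAP2C was also highest in HAND1 or ISL1 cells, at 39.7 CPM in WT and 55.8 CPM in GATA3 KO, a log2 ratio of 0.48 (0.02 to 0.95). The interval of that ratio holds 0 over all deposited cells (0.32, -0.04 to 0.69), with no upper limit on detected genes (0.31, -0.06 to 0.68), at 20000 UMIs (0.09, -0.20 to 0.39) and with the other draw (0.17, -0.28 to 0.64). In SOX2-rich cells TFAP2C was at 10.2 CPM in WT and 4.18 CPM in GATA3 KO, a log2 ratio of -1.12 (-1.81 to -0.38). With cells thinned to 20000 UMIs, and the SOX2 limit of the group raised in proportion, that ratio was 0.13 (-0.73 to 1.04). Its direction is not settled. In streak-marker cells TFAP2C was at 10.0 and 17.6 CPM, a log2 ratio of 0.75 that became 0.04 at 20000 UMIs. TFAP2B of GATA3 KO was at 11.6 CPM (7.58 to 17.0) in HAND1 or ISL1 cells, with 0 UMIs in 141 such WT cells, and all 23 of its positive cells there had TFAP2A.

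**Figure D4:**
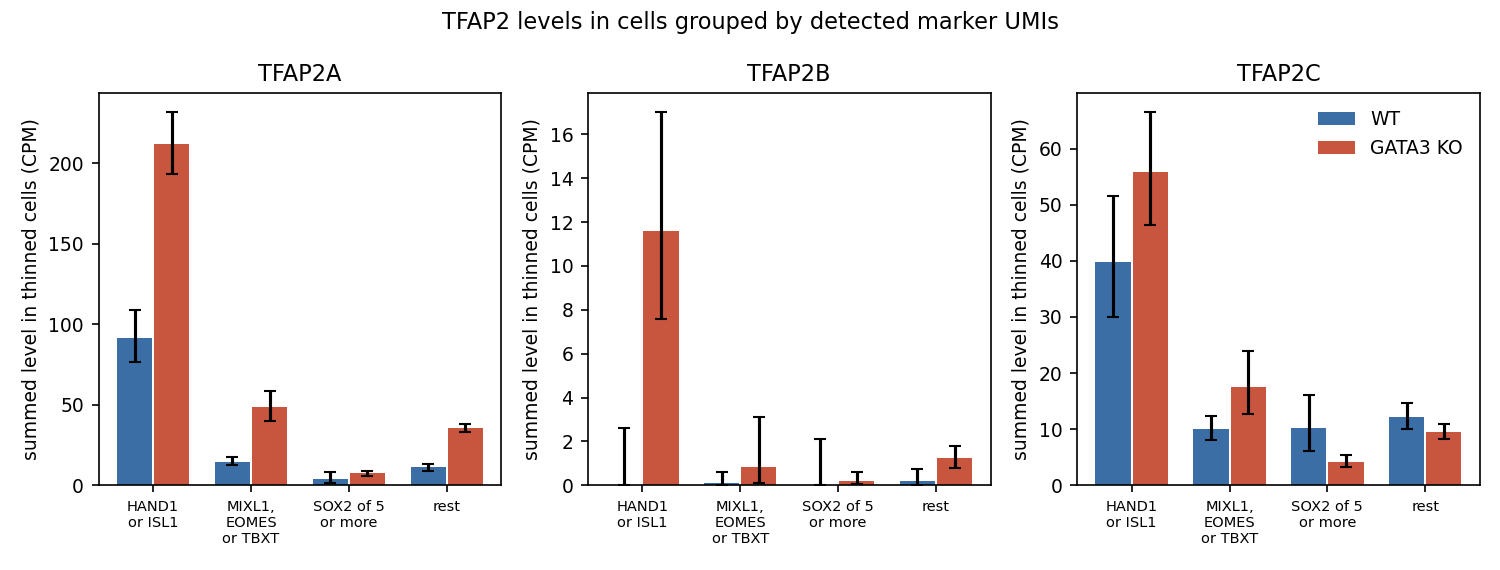
Summed level of each TFAP2 gene in thinned cells (CPM, linear axes from 0) by marker group, in WT and GATA3 KO, with exact Poisson 95% intervals. HAND1 or ISL1 cells have the highest TFAP2A, at 91.5 CPM in WT and 212 CPM in GATA3 KO, and the TFAP2B bar of GATA3 KO stands at 11.6 CPM there.

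Genes of amnion and trophectoderm, tissues in which AP-2 factors are known to act, were higher in TFAP2A-positive cells of both libraries. Sums of thinned counts were compared between cells with and without a TFAP2A UMI. In WT, 14 of 16 tested genes of the list of 19 were at least 2-fold higher in TFAP2A-positive cells, where 2.07% of 9872 genes were, and none was 2-fold lower, where 1.35% were. The median log2 ratio was 1.70, beside -0.05 over all genes. In GATA3 KO, 13 of 15 were higher, where 3.07% of 9946 genes were, none was lower, where 1.66% were, and the median was 2.73.

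HAND1 was at 70.5 CPM in TFAP2A-positive and 5.54 CPM in TFAP2A-negative WT cells, a log2 ratio of 3.45. In GATA3 KO it was at 56.8 and 1.90 CPM, a log2 ratio of 4.32. TBX3, a T-box factor, had log2 ratios of 1.85 in WT and 4.27 in GATA3 KO, and the homeobox genes DLX5 and MSX2 had 3.11 and 1.55 in WT and 4.21 and 3.21 in GATA3 KO. GATA2, a close relative of GATA3, was at 7.36 and 1.25 CPM in WT and at 25.6 and 3.02 CPM in GATA3 KO. KRT8, a keratin of simple epithelia, was at 534 and 197 CPM in WT and at 1208 and 324 CPM in GATA3 KO. KRT7 and IGFBP3 went the other way in GATA3 KO, with log2 ratios of -0.63 and -0.54. Between the libraries, 4 of 12 tested genes of this list (GATA2, KRT8, WNT6 and DLX5) were at least 2-fold higher in GATA3 KO, where 2.43% of all genes were. None was 2-fold lower, where 2.09% were. Its summed level was 1347 CPM in WT and 1729 CPM in GATA3 KO, with no member at 0 in either. Most of that sum came from the keratin genes KRT8, KRT18 and KRT19. They were at 242, 804 and 201 CPM in WT and at 497, 809 and 299 CPM in GATA3 KO. Over all deposited cells the median log2 ratio of the list went from 0.62 to -0.01.

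Neural crest and surface ectoderm genes were tested in part. In GATA3 KO, 4 of 6 tested of 14 were at least 2-fold higher in TFAP2A-positive cells (MSX1, DLX6, GRHL2 and GRHL3), where 3.07% of all genes were, and FOXD3, a crest factor also found in hESCs, was 2-fold lower, where 1.66% were. In WT only 3 of the 14 were tested, and MSX1 was higher, at 37.6 against 4.33 CPM, where 2.07% of all genes were. The crest genes PAX3, SNAI2 and SOX10 stayed under 5 CPM in both sets of cells of both libraries. Between the libraries, SOX9 and FOXD3 were at least 2-fold higher in GATA3 KO, of 4 tested, where 2.43% of all genes were, and none was lower.

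Of the pluripotency genes, SOX2 alone of 10 tested was at least 2-fold lower in TFAP2A-positive WT cells (a log2 ratio of -1.58), where 1.35% of all genes were, and the list median was -0.60. In GATA3 KO 3 of 9 were, where 1.66% of all genes were, with log2 ratios of -1.38 for SOX2, -1.41 for TDGF1 and -1.17 for DNMT3B, and the median was -0.41. POU5F1 was at 879.8 and 933 CPM in WT and at 1401 and 1497 CPM in GATA3 KO, so TFAP2A-positive cells held nearly as much of it as the others. Between the libraries, SOX2 was at least 2-fold higher and FGF4 lower in GATA3 KO, of 10 tested, where 2.43% and 2.09% of all genes were.

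All 10 primitive streak genes were at least 2-fold lower in GATA3 KO than in WT, where 2.09% of all genes were. Their median log2 ratio was -3.13. Their summed level was 468 CPM in WT and 39.4 CPM in GATA3 KO, with no member at 0. Within WT none of the 10 was 2-fold apart between TFAP2A-positive and TFAP2A-negative cells, with MIXL1 at 130.2 and 131 CPM. That count is near the background, as 2.07% of all genes were at least 2-fold higher and 1.35% lower. Within GATA3 KO none of 3 tested genes was 2-fold apart, where 3.07% of all genes were higher and 1.66% lower. The part of these cells in the TFAP2 differences was not tested beyond the marker groups above.

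The AP-2 cofactors and inhibitors differed little. CITED2, a coactivator partner of AP-2 factors, was at 87.2 CPM in TFAP2A-positive and 46.8 CPM in TFAP2A-negative WT cells. In GATA3 KO it was at 141 and 46.5 CPM, a log2 ratio of 1.59. It was the only one of 8 tested past 2-fold, where 3.07% of all genes were higher and 1.66% lower. KCTD1, an AP-2 inhibitor, had log2 ratios of 0.99 in WT and 0.73 in GATA3 KO. Between the libraries none of 8 was 2-fold apart, where 2.43% of all genes were higher and 2.09% lower in GATA3 KO.

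**Figure D5:**
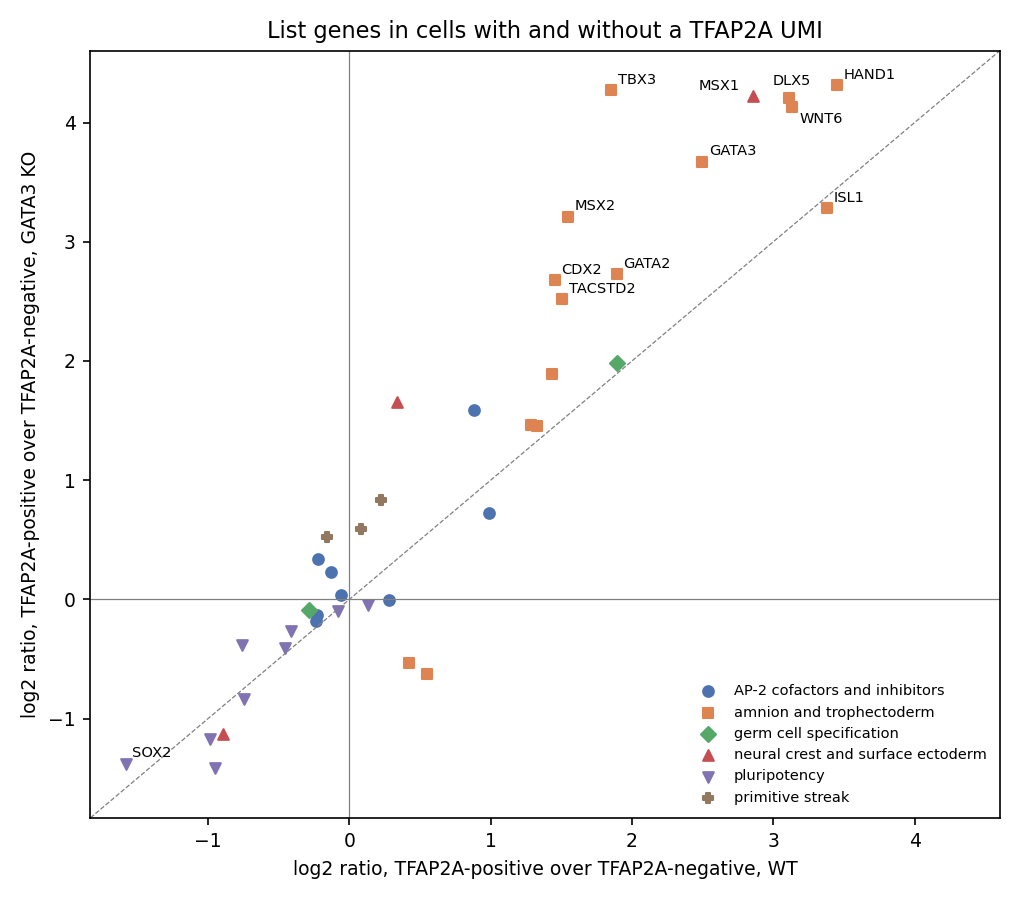
Each point is a list gene of at least 5 CPM in both libraries, with its log2 ratio between TFAP2A-positive and TFAP2A-negative cells in WT (x axis) and GATA3 KO (y axis), and the dashed line marks equal ratios. HAND1, DLX5 and WNT6 stand at upper right, and SOX2 has -1.58 in WT and -1.38 in GATA3 KO.

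HAND1 was highest in cells with both TFAP2A and TFAP2C. In WT it was at 109 CPM in 69 cells with both, 56.6 CPM in 189 with TFAP2A alone, 12.1 CPM in 165 with TFAP2C alone and 4.91 CPM in 1750 with neither. In GATA3 KO the same levels were 109, 39.2, 10.0 and 1.49 CPM. SOX2 had the reverse order in GATA3 KO, at 79.8, 199.8, 358 and 447 CPM. In WT it was at 30.4 and 63.5 CPM in cells with TFAP2A and at 181 and 164 CPM in those with TFAP2C alone or neither.

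Of the germ cell genes, SOX17 and PRDM1 were at higher levels in the WT cells with both factors than in those of GATA3 KO, and NANOS3 was not. SOX17, which with PRDM1 and TFAP2C is known to specify human germ cells and also marks endoderm, was at 63.8 CPM (46.3 to 85.6) in the 69 WT cells with both. It was at 19.0 CPM with TFAP2A alone and at 4.24 and 8.34 CPM in the other classes. In the 183 GATA3 KO cells with both it was at 0.546 CPM (0.0138 to 3.04), from 1 UMI. Over all kept cells SOX17 was at 10.6 CPM in WT and 0.160 CPM in GATA3 KO, so it was low over the whole of that library. PRDM1 was at 10.1 CPM (4.08 to 20.9) and 0.546 CPM (0.0138 to 3.04) in cells with both, whereas NANOS3 was at 13.0 CPM (5.96 to 24.8) and 12.0 CPM (7.53 to 18.2). These levels rest on 7 and 1 UMIs of PRDM1 and 9 and 22 of NANOS3. Of the list of 10, 4 were tested between TFAP2A-positive and TFAP2A-negative cells in each library. In WT 3 of them were at least 2-fold higher in TFAP2A-positive cells (SOX17, PRDM1 and NANOS3, median log2 ratio 1.79), where 2.07% of all genes were. In GATA3 KO NANOS3 was higher, where 3.07% were, and PRDM14 lower, where 1.66% were (median -0.15). Between the libraries PRDM14 was at least 2-fold higher and SOX17 lower in GATA3 KO, of 4 tested, where 2.43% and 2.09% of all genes were.

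The genes whose counts followed TFAP2A most closely across thinned cells were ranked over 9021 genes by the lower of the 2 libraries' correlations. HPGD, an enzyme that inactivates prostaglandins, led with 0.43 in WT and 0.62 in GATA3 KO. CLDN10, a tight junction claudin, had 0.42 and 0.65. PCAT14, RHOBTB3, BAMBI, FN1, HAPLN1 and ACTC1 followed, with 0.33 to 0.41 in WT. The lowest were TDGF1, at -0.32 and -0.48, then PEBP1, TERF1 and H3F3A. For TFAP2C the first 8 were HPGD, PCAT14, RHOBTB3, TFAP2A, HAPLN1, BAMBI, CLDN10 and BMP4, with 0.21 to 0.29 in WT. TFAP2A correlated with GATA3 at 0.31 and 0.47 and with SOX2 at -0.22 and -0.47. These values describe the 2 libraries, and TFAP2B was too sparse to be ranked.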

How the data were processed

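The authors made 10x Genomics 3′ v3 libraries and deposited raw UMI counts per gene and cell barcode, from Cell Ranger 3.0.2 with a GRCh38 reference per the file headers and labels. Samples were grouped by the labels. The protocol text of the WT library gives 1 h of BMP4, its title and duration label 48 h, which was used. Cells over 7500 genes or 25% mitochondrial counts were removed, the limits stated in the study's methods. Scrublet (scanpy 1.11.5) called 1 and 2 doublets among all cells, too few to have worked, and none was kept, so doublets were removed only as an alternative, of 54 and 170 cells. CPM carry exact Poisson, shares exact Clopper-Pearson and ratios exact binomial 95% intervals. For a share of 0 the share of 3 counts is given too. Ratios add 1 CPM. Cells were thinned to 10000 UMIs, leaving out 346 and 412. List genes needed 5 CPM in the higher set of cells, and mitochondrial genes were left out between libraries. edgeR 4.0.16 gave alternative scaling factors only. The genes named were the family, GATA3, SOX2, the lists, and the 8 genes most and 4 least correlated with each member. Positions came from GENCODE by gene identifier. The interval and correlation code was tested on simulated data. Members, lists and cell groups were chosen with earlier results of these data known.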

Additional observations from a re-analysis of the deposited data

Results flagged for a closer look

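The cells with more than 7500 detected genes, left out of the comparisons by the limits of the study, held signal of all 3 members in WT above the level of the kept WT cells. TFAP2A was at 32.2 CPM there (31.1 to 33.3) against 16.7 CPM, TFAP2C at 15.9 CPM (15.1 to 16.7) against 12.2 CPM, and TFAP2B at 0.479 CPM (0.352 to 0.637) against 0.211 CPM. In GATA3 KO the same cells were at 37.8, 9.47 and 1.25 CPM against 37.7, 10.6 and 1.30 CPM. These cells number 1012 in WT and 1265 in GATA3 KO.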

How the results depend on the processing

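All values here are log2 ratios of GATA3 KO over WT or differences in percentage points. Over all deposited cells and with no upper limit on detected genes, the ratio of TFAP2A was 0.62 and 0.61, of TFAP2B 0.75 and 0.76, and of TFAP2C -0.42 and -0.43. Under the same 2 settings the WT difference in TFAP2A detection between 0 and at least 5 SOX2 UMIs was 20.9 and 21.3, and the median of the amnion and trophectoderm list turned to -0.0132 and -0.00619. The mean of per-cell CPM gave 1.03 for TFAP2A and -0.35 for TFAP2C, and a pseudocount of 0.1 CPM gave 2.17 for TFAP2B. At 20000 UMIs and without thinning, TFAP2A in GATA3-positive against GATA3-negative WT cells differed by 38.6 and 44.1, and TFAP2A across SOX2 by 29.1 and 28.2 in WT and 78.5 and 32.2 in GATA3 KO. In GATA3 KO, TFAP2C in TFAP2A-positive against TFAP2A-negative cells differed by 26.7 and 30.8, and TFAP2C across SOX2 by 39.4 and 18.6. Comparisons across SOX2 kept the limit of 5 UMIs at each depth, so these runs compare other sets of cells than the main run. At 20000 UMIs TFAP2A by GATA3 in GATA3 KO differed by 68.0. The ratio of TFAP2C in SOX2-rich cells, with their SOX2 limit raised in proportion to depth, turned to 0.13. Without thinning, GATA3 KO minus WT was 2.79 for TFAP2A and -4.20 for TFAP2C. Another thinning draw gave 16.0 for TFAP2C by TFAP2A and 19.8 for TFAP2C by SOX2 in GATA3 KO. With at least 2 UMIs required, TFAP2C by TFAP2A differed by 9.82 in WT and 8.51 in GATA3 KO, TFAP2A across SOX2 by 6.52 and 38.5, TFAP2C across SOX2 by 6.97 in GATA3 KO, and TFAP2C between libraries by -0.14 with an interval that holds 0. Each ratio and difference named here kept its direction under the alternatives run, except the list median and TFAP2C in SOX2-rich cells. With a minimum of 20 CPM in place of 5, 133 genes were at least 2-fold higher and 110 lower in GATA3 KO, in place of 242 and 209. Correlations of log-normalised counts without thinning shared 7 of the 8 genes most like TFAP2A and 5 of those most like TFAP2C. Depth limits TFAP2B most, with 21 UMIs in WT. Levels within marker groups were recomputed by a choice made after seeing the data. The cause of these shifts was not tested. No paired analysis was possible because each group has 1 library.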
